A study of Bos taurus with 37 samples.

Results

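The genes described here are FGF4, the receptors FGFR1, FGFR2, FGFR3 and FGFR4, and the FGF-ERK target genes SPRY2, SPRY4, DUSP6, ETV4 and ETV5, taken by symbol from the deposited expression table. These 10 genes had 1 row each among the 22628 rows of the table. The rule that picks their rows uses symbols and no measured value. The genes and the lists used below were themselves chosen with earlier results of these data known. The transcriptome of 35 single bovine blastocysts (BLs) was measured by RNA-seq after amplification of the poly(A) RNA of each embryo by pico-profiling. Males gave 6 SCNT-BLs, 6 sham NT-BLs and 6 IVF-BLs, females gave 6 SCNT-BLs, 5 sham NT-BLs and 6 IVF-BLs, and each sex had 1 library of donor cells. SCNT-BLs were made by fusing a single adult ear skin fibroblast, male or female, to an enucleated oocyte that was activated afterwards. Sham NT-BLs started as fertilized zygotes that lost the polar body and part of the ooplasm through a torn zona, kept both pronuclei, and were then activated with ionomycin and DMAP. IVF-BLs came from fertilization in vitro without this manipulation. Blastocysts were picked for quality and cell number after Hoechst staining. The age and breed of the donor animals are not given in the sources used here. Nothing states that embryos of a group came from separate sires, dams or culture runs, so p-values measure the spread between these embryos only.

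FGF ligands bind receptor tyrosine kinases of the FGFR family, which pass the signal through adaptor proteins and RAS to a chain of kinases that ends in ERK. Active ERK switches on the ETS factors ETV4 and ETV5 as well as its own inhibitors, the Sprouty proteins SPRY2 and SPRY4 and the phosphatase DUSP6, so their transcripts are commonly read as a record of pathway activity. In the mouse blastocyst, FGF4 made by epiblast precursors acts on FGFR1 and FGFR2 to direct neighbouring inner cells to primitive endoderm and to sustain the trophectoderm. In cattle, blocking or adding FGF signals also shifts the balance between epiblast and hypoblast cells.

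Values are FPKM, a fragment number scaled by transcript length and by the fragments mapped in the library. This scaling does not correct for differences between genes in priming and amplification. Orders and shares of genes given below are therefore those of FPKM. Groups were compared within a sex by limma on log2(FPKM + 1). A gene was called when its p-value, adjusted by Benjamini-Hochberg over all genes tested, was under 0.05. Ranges that do not overlap are given as a description only, since the share of all genes with such ranges is not given here. Male and female embryos were sequenced on separate flow cells, so that wherever the sexes are compared, sex and flow cell cannot be told apart. SCNT-BLs of each sex also came from fibroblasts of that sex, so sex and donor cells cannot be told apart there either. The comparisons also share groups: IVF-BLs serve as the control of both SCNT-BLs and sham NT-BLs, and sham NT-BLs are in turn the control of SCNT-BLs. Within groups, libraries correlated at r = 0.83 to 0.936 over 11155 genes, and those least like their group were male sham NT-BL 1 and female SCNT-BL 6. According to the study, most male sham NT libraries had a lower mapped share of reads than other blastocysts. Its part in the comparisons and relations that hold male sham NT-BLs was not tested. Fibroblast markers summed to at most 36.4 FPKM in any blastocyst, against 12480 FPKM in the male and 7829 FPKM in the female donor library, while trophectoderm markers summed to at least 1690 FPKM in every blastocyst and to 8.41 and 24.7 FPKM in the donor cells.

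Of the 10 genes, 9 were tested in each comparison; FGF4 failed the filter on low values in all of them. SCNT-BLs differed from IVF-BLs in 0 of 9 genes by limma in males, where 6.98% of all genes tested were called, and 3 genes (FGFR3, FGFR4 and SPRY2) had an unadjusted p under 0.05. In females the same comparison also called 0 of 9 genes, with 0 at an unadjusted p under 0.05, against 0.321% of all genes. Sham NT-BLs differed from IVF-BLs in 1 of 9 genes in males (FGFR3, lower; 12.1% of all genes) and in 1 of 9 in females (SPRY2, lower; 13.5% of all genes). SCNT-BLs differed from sham NT-BLs in 1 of 9 genes in males (SPRY2, lower; 11.8% of all genes) and in 2 of 9 in females (SPRY2, higher, and FGFR4, lower; 11.3% of all genes). As shares of the 9 genes these are 0.0% in both comparisons of SCNT-BLs with IVF-BLs, 11.1% in the 3 comparisons with 1 call, which is near the share of all genes there, and 22.2% in female SCNT-BLs against sham NT-BLs. The calls fell on SPRY2, FGFR3 and FGFR4. The median log2 difference of the 9 genes was -0.62 in males and -0.21 in females for SCNT-BLs against IVF-BLs, -0.12 and -0.45 for sham NT-BLs against IVF-BLs, and -0.03 and 0.26 for SCNT-BLs against sham NT-BLs, while that of all genes tested lay between -0.09 and 0.04. A test of whether the difference depended on sex, females minus males, called 0 of 9 genes for SCNT-BLs against IVF-BLs (1.91% of all genes; 2 at an unadjusted p under 0.05), 0 of 9 for sham NT-BLs against IVF-BLs (1.22%; 1 at an unadjusted p under 0.05) and 1 of 9, SPRY2, for SCNT-BLs against sham NT-BLs (2.17%).

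**Figure D1:**
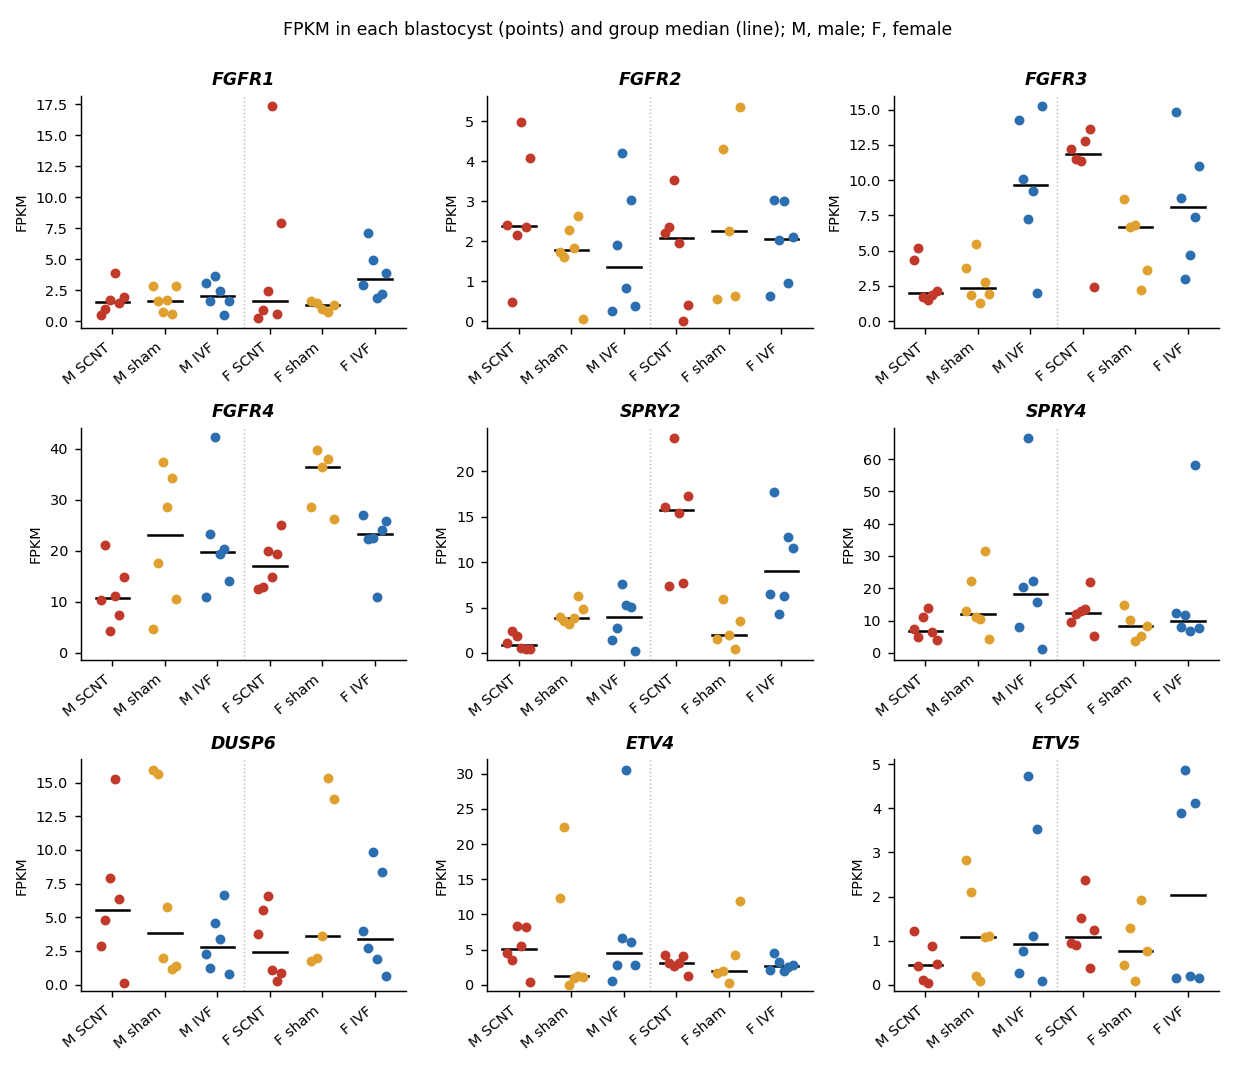
FPKM of 9 genes (1 panel each, linear axis) in each blastocyst (points) with the group median (line), males on the left and females on the right of each panel. SPRY2 lies at 7.40 FPKM or more in all 6 female SCNT-BLs and at 5.91 FPKM or less in all 5 female sham NT-BLs, while in males the SCNT-BLs lie below the sham NT-BLs.

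Transcripts of the ligand FGF4 were all but missing from the table. FGF4 was listed at 0 in 34 of 35 blastocysts and in both donor libraries, the exception being female IVF-BL 1 at 0.836 FPKM. GAPDH, ACTB, RPLP0, RPS6, EEF2 and PPIA, which every cell uses, were above 0 in all 37 libraries in at least 1 of their rows, but the depth of the libraries is not in the table, so that no upper limit can be set on FGF4. FGF4 lies beside FGF19 and FGF3 in the bovine RefSeq table, and these neighbours were also low: FGF3 reached at most 0.25 FPKM and FGF19 at most 5.05 FPKM in any blastocyst.

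Other FGF ligands were present. FGF9, a ligand of FGFR2 and FGFR3, had the highest mean of the 17 other ligands in 5 of the 6 blastocyst groups, with FGF1 above it in male sham NT-BLs. FGF9 was at 22.8 ± 16.3 FPKM in male SCNT-BLs, 12.9 ± 9.17 FPKM in male sham NT-BLs (FGF1 15.3 ± 13.9 FPKM) and 20.7 ± 16.2 FPKM in male IVF-BLs (SD, n = 6 each). In females FGF9 averaged 23.4 ± 16.2 FPKM in SCNT-BLs (n = 6), 9.53 ± 5.09 FPKM in sham NT-BLs (n = 5) and 17.9 ± 15.6 FPKM in IVF-BLs (SD, n = 6). Its spread within groups was wide, between 1.17 and 43.2 FPKM within female SCNT-BLs. FGF2, which all 4 receptors bind, was above 0 in every blastocyst, with group means between 1.39 and 3.76 FPKM. FGF5, FGF6, FGF17 and FGF23 were listed at 0 in all male SCNT-BLs, and FGF23 in every group. In 5 of the 6 comparisons within a sex, 0 of the 8 to 10 rows of other ligands tested were called by limma. In the sixth, female SCNT-BLs against female sham NT-BLs, 1 of 9 was: a row of FGF1 was lower in SCNT-BLs by a log2 difference of -1.81 ± 0.51 (SE; adjusted p = 0.0309), at 1.4 ± 1.51 FPKM against 6.94 ± 3.49 FPKM in sham NT-BLs (SD). FGF1 has 2 rows in the table, and the other row stayed under 2.2 FPKM in every blastocyst.

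By FPKM, FGFR4 was the main receptor transcript of the blastocysts. It was the highest of the 4 receptors in 32 of 35 embryos and made up a median of 63.1% of their summed FPKM, ranging between 31.7% and 91.3%. FGFR3 came next with a median share of 18.6%, followed by FGFR1 with 6.45% and FGFR2 with 6.26%. FGFR3 exceeded FGFR4 in 2 embryos, both male IVF-BLs, and FGFR1 exceeded it in 1, female SCNT-BL 4. FGFR1 and FGFR2 could not be ordered, since FGFR1 was above FGFR2 in 16 of 35 embryos, whereas each was above FGFR3 in 7 of 35. Donor cells had the opposite make-up: FGFR1 was at 277 FPKM (97.8% of the receptor sum) in the male and 211 FPKM (98.3%) in the female library, and FGFR4 was at 0.0642 and 0.0528 FPKM.

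**Figure D2:**
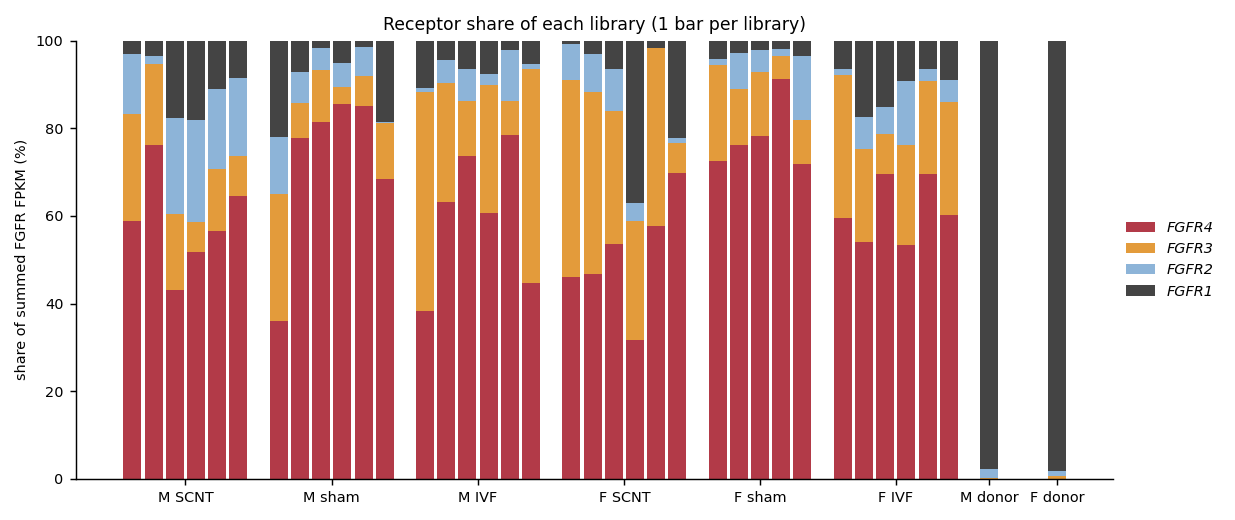
Share of each receptor in the summed FPKM of FGFR1 to FGFR4 (vertical axis, percent), 1 stacked bar per library, ordered by group with the donor cells on the right. FGFR4 is the largest part of 32 of 35 blastocysts, and FGFR1 makes up 97.8% and 98.3% of the donor libraries.

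Female SCNT-BLs had less FGFR4 than female sham NT-BLs. FGFR4 ranged between 12.5 and 25.1 FPKM with a median of 17.1 FPKM in 6 female SCNT-BLs, and was at 28.6, 39.8, 36.3, 38.0 and 26.3 FPKM in the 5 female sham NT-BLs. The ranges did not overlap, and the log2 difference was -0.94 ± 0.24 (SE, limma, adjusted p = 0.0213). The call was lost when female sham NT-BL 2, 3 or 4 was left out (adjusted p = 0.0571, 0.056 and 0.0583) and in a fit of all 6 groups (adjusted p = 0.0926), while the log2 difference stayed between -1.05 and -0.86 in all alternatives. As a share of the receptor sum, FGFR4 took 31.7% to 69.9% in female SCNT-BLs and 71.8% to 91.3% in female sham NT-BLs. The shares did not overlap, but they are computed from the same FGFR4 values in the same embryos.

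Against IVF-BLs, FGFR4 did not pass the test in either female group. Female IVF-BLs held 10.9 to 27.1 FPKM with a median of 23.3 FPKM, a range that encloses that of the female SCNT-BLs. The log2 difference was -0.31 for SCNT-BLs (SE 0.26, adjusted p = 0.678) and 0.62 for sham NT-BLs (SE 0.25, adjusted p = 0.116), and 4 of 5 sham NT-BLs lay above every IVF-BL. In males, FGFR4 had a median of 10.7 FPKM in SCNT-BLs (4.24 to 21.2 FPKM), 23.1 FPKM in sham NT-BLs (4.74 to 37.4 FPKM) and 19.8 FPKM in IVF-BLs (11 to 42.2 FPKM). All these ranges overlapped, and male SCNT-BLs were lower than IVF-BLs by a log2 difference of -0.88 ± 0.35 that did not pass adjustment (SE, limma, adjusted p = 0.163).

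FGFR3, a receptor for FGF9 among other ligands, had lower medians in both manipulated male groups than in male IVF-BLs, and 1 of these differences passed the test. It had a median of 1.99 FPKM in male SCNT-BLs (1.5 to 5.17 FPKM), 2.35 FPKM in male sham NT-BLs (1.29 to 5.51 FPKM) and 9.67 FPKM in male IVF-BLs (2.00 to 15.3 FPKM). Of the 6 male IVF-BLs only replicate 5, at 2.00 FPKM, lay within the range of the others; the remaining 5 were at 7.21 FPKM or more. The log2 difference was -1.38 ± 0.43 for sham NT-BLs against IVF-BLs, which passed (SE, limma, adjusted p = 0.0447), and -1.41 ± 0.42 for SCNT-BLs against IVF-BLs, which did not (adjusted p = 0.0518). Both lie close to the threshold and their side of it is not stable. The sham NT call was lost without male IVF-BL 1, 2, 3, 4 or 6 or male sham NT-BL 2, 4, 5 or 6 (adjusted p between 0.0664 and 0.101), whereas SCNT-BLs against IVF-BLs passed without male IVF-BL 5 (adjusted p = 0.00977) or without male SCNT-BL 2 (adjusted p = 0.0414). Between male SCNT-BLs and sham NT-BLs, FGFR3 had a log2 difference of -0.03 ± 0.37 (SE, limma, adjusted p = 0.975). For male sham NT-BLs, the part of the lower mapped share in the FGFR3 difference was not tested.

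In females, FGFR3 was called in no comparison. It was at 11.3 to 13.6 FPKM in 5 of the 6 female SCNT-BLs and at 2.43 FPKM in replicate 6, against 8.64, 6.69, 6.83, 2.19 and 3.65 FPKM in sham NT-BLs and a median of 8.07 FPKM (2.96 to 14.9 FPKM) in IVF-BLs. The log2 difference of SCNT-BLs was 0.34 ± 0.41 against IVF-BLs (SE; adjusted p = 0.777) and 0.79 ± 0.43 against sham NT-BLs (adjusted p = 0.266). Female SCNT-BL 6, the library least like its group, decides the second of these: without it the log2 difference from sham NT-BLs was called (1.12, adjusted p = 0.0436). The female minus male difference in the SCNT-BL against IVF-BL contrast was 1.75 ± 0.59 on the log2 scale (SE, limma, adjusted p = 0.136), and it passed only without the same library (2.07, adjusted p = 0.0462).

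FGFR1 and FGFR2, which carry the FGF4 signal in the mouse blastocyst, were low and were called in none of the 6 comparisons within a sex. FGFR1 was at 1.65, 1.43, 1.02, 0.777 and 1.28 FPKM in the 5 female sham NT-BLs and at 1.87 to 7.16 FPKM, with a median of 3.41 FPKM, in the 6 female IVF-BLs. These ranges did not overlap, but the log2 difference of -1.03 ± 0.35 missed the threshold (SE, limma, adjusted p = 0.0611), which it passed without female IVF-BL 4 (adjusted p = 0.0487) and with a filter at a mean of 1 FPKM (adjusted p = 0.0419). In female SCNT-BLs FGFR1 was uneven: replicates 4 and 6 were at 17.3 and 7.96 FPKM and the other 4 at 0.230 to 2.44 FPKM. The same 2 embryos had the highest fibroblast marker sums of their group, 14.1 and 14.8 FPKM, against 4.74 to 7.45 FPKM in the other 4, and the part of this in FGFR1 was not tested. FGFR1 stayed between 0.520 and 3.89 FPKM in the 18 male embryos.

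FGFR2 had group medians between 1.37 FPKM in male IVF-BLs and 2.39 FPKM in male SCNT-BLs, and its ranges overlapped in all 6 comparisons. It was listed at 0 in female SCNT-BL 5 and at 0.0448 FPKM in male sham NT-BL 6. Its log2 differences lay between -0.35 and 0.51 with adjusted p of 0.522 or more. The male donor library had 5.61 FPKM, above all embryos, and the female one 2.47 FPKM.

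SPRY2, a Sprouty protein that dampens receptor signalling upstream of ERK, gave the clearest differences of the 10 genes, and they ran in opposite directions in the sexes. In males, SPRY2 was at 0.381 to 2.36 FPKM with a median of 0.855 FPKM in 6 SCNT-BLs and at 3.22 to 6.32 FPKM with a median of 3.89 FPKM in 6 sham NT-BLs. All male SCNT-BLs lay below all male sham NT-BLs, with a log2 difference of -1.37 ± 0.33 (SE, limma, adjusted p = 0.012). In females, SPRY2 was at 7.40 to 23.7 FPKM with a median of 15.7 FPKM in 6 SCNT-BLs and at 1.54, 5.91, 1.93, 0.434 and 3.53 FPKM in 5 sham NT-BLs. All female SCNT-BLs lay above all female sham NT-BLs, with a log2 difference of 2.18 ± 0.43 (SE, limma, adjusted p = 0.00463). The difference of these differences, females minus males, was 3.55 ± 0.53 on the log2 scale (SE, limma, adjusted p = 7.2e-04), and it kept its call in all 30 alternatives, between 3.26 and 4.77. The female call held in all 18 alternatives; the male call held in 18 of 19, the exception being a block on the replicate number (adjusted p = 0.0501), which does not pair these embryos.

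Relative to IVF-BLs, SPRY2 was lower in female sham NT-BLs. Female IVF-BLs held 4.3 to 17.7 FPKM with a median of 9.02 FPKM, and 4 of 5 sham NT-BLs lay below every one of them. The log2 difference was -1.63 ± 0.44 (SE, limma, adjusted p = 0.0236), and the call was lost without female IVF-BL 2 or 5 or female sham NT-BL 3 or 4 (adjusted p between 0.0503 and 0.0651). For female SCNT-BLs against IVF-BLs the log2 difference of 0.55 ± 0.36 did not pass (SE; adjusted p = 0.595). Male IVF-BLs ranged widely, between 0.247 and 7.57 FPKM with a median of 3.91 FPKM, and overlapped with both other male groups. The log2 difference was -0.97 ± 0.45 for male SCNT-BLs (SE; adjusted p = 0.24) and 0.40 ± 0.44 for male sham NT-BLs (adjusted p = 0.608). The female minus male differences against IVF-BLs were 1.51 ± 0.60 for SCNT-BLs (SE; adjusted p = 0.211) and -2.03 ± 0.63 for sham NT-BLs (adjusted p = 0.131), and neither passed.

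SPRY2 was also abundant in donor cells, at 18.3 FPKM in the male and 76.0 FPKM in the female library, so the fibroblast markers were read in the same embryos. Their sum over 11 genes was 2.52 to 7.17 FPKM in male SCNT-BLs and 5.89 to 36.4 FPKM in male sham NT-BLs, and 2 of the 7 tested, COL1A1 and COL1A2, were lower in SCNT-BLs (log2 differences of -0.72 and -1.53, adjusted p = 0.0457 and 0.0479). In females the sums overlapped, at 4.74 to 14.8 FPKM in SCNT-BLs and 2.51 to 12.1 FPKM in sham NT-BLs, and THY1 alone was called, higher in SCNT-BLs. TWIST1 was listed at 0 in all male SCNT-BLs and COL5A1 in all female SCNT-BLs and sham NT-BLs. The part of fibroblast RNA and of the mapped share in the SPRY2 differences was not tested.

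**Figure D3:**
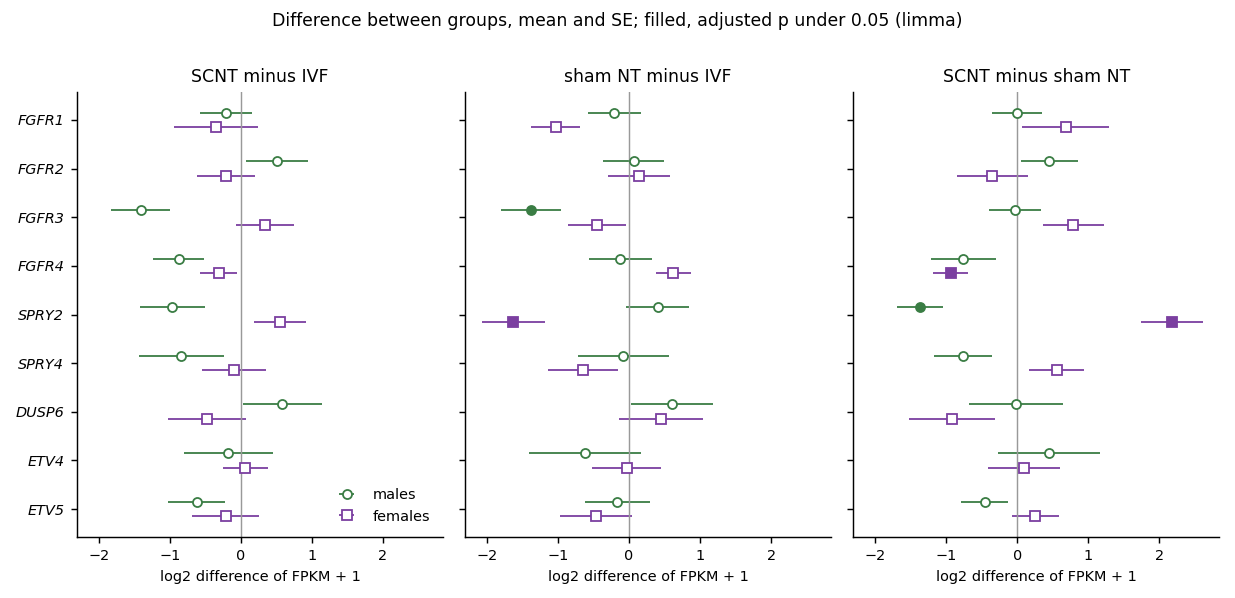
Log2 difference of FPKM + 1 between groups (horizontal axis; mean and SE from limma) for 9 genes, with SCNT minus IVF, sham NT minus IVF and SCNT minus sham NT in separate panels, males as circles and females as squares. Filled symbols have an adjusted p under 0.05; SPRY2 lies at -1.37 in males and at 2.18 in females in the last panel.

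SPRY4 and DUSP6 were called in no comparison. SPRY4, the second Sprouty gene, was the more abundant of the pair by FPKM, being above SPRY2 in 28 of 35 embryos. It had medians of 6.92 FPKM in male SCNT-BLs (4.11 to 13.9 FPKM), 12.1 FPKM in male sham NT-BLs (4.3 to 31.6 FPKM) and 18.1 FPKM in male IVF-BLs (1.15 to 66.5 FPKM). Female SCNT-BLs had a median of 12.5 FPKM (5.36 to 21.8 FPKM), female sham NT-BLs were at 14.9, 10.2, 3.58, 5.23 and 8.23 FPKM, and female IVF-BLs had a median of 9.85 FPKM (6.63 to 58.2 FPKM). Each IVF group thus held 1 embryo far above the rest. The log2 difference of SCNT-BLs from sham NT-BLs was -0.76 ± 0.41 in males (SE; adjusted p = 0.269) and 0.56 ± 0.38 in females (adjusted p = 0.397); females minus males it was 1.31 ± 0.57 (SE, limma, unadjusted p = 0.0306, adjusted p = 0.265).

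DUSP6, the phosphatase that removes phosphate from ERK in the cytoplasm, varied more between embryos of a group than between groups. Male SCNT-BLs spanned 0.139 to 15.2 FPKM (median 5.57 FPKM), male sham NT-BLs 1.16 to 15.9 FPKM (median 3.87 FPKM) and male IVF-BLs 0.790 to 6.68 FPKM (median 2.83 FPKM). Among females, SCNT-BLs spanned 0.305 to 6.60 FPKM (median 2.43 FPKM), sham NT-BLs were at 1.75, 1.98, 3.61, 15.4 and 13.8 FPKM, and IVF-BLs spanned 0.621 to 9.84 FPKM (median 3.37 FPKM). All ranges overlapped. The log2 differences within a sex lay between -0.92 and 0.60, with adjusted p of 0.373 or more. The donor libraries had 14.9 FPKM (male) and 47.5 FPKM (female).

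The ETS factors ETV4 and ETV5 were not called in any comparison either. ETV4 had medians of 5.04, 1.17 and 4.48 FPKM in male SCNT-BLs, sham NT-BLs and IVF-BLs, and its embryos lay between 0.323 and 8.30 FPKM in SCNT-BLs, between a listed 0 and 22.5 FPKM in sham NT-BLs and between 0.573 and 30.5 FPKM in IVF-BLs. In female SCNT-BLs it was at 1.22 to 4.20 FPKM (median 3.1 FPKM), in female sham NT-BLs at 1.62, 1.95, 0.297, 4.23 and 11.8 FPKM, and in female IVF-BLs at 1.98 to 4.54 FPKM (median 2.68 FPKM). Its log2 differences lay between -0.62 and 0.44 with adjusted p of 0.663 or more. ETV5 was the lowest of the 9 genes tested, under 1 FPKM in 19 of 35 embryos, and its group medians lay between 0.451 FPKM in male SCNT-BLs and 2.04 FPKM in female IVF-BLs. Female IVF-BLs fell apart into 3 embryos at 3.89, 4.87 and 4.11 FPKM and 3 at 0.152, 0.189 and 0.151 FPKM, without any such gap in SCNT-BLs or sham NT-BLs of that sex. The log2 differences of ETV5 lay between -0.62 and 0.26 with adjusted p of 0.41 or more.

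The spread within groups frames these results. The coefficient of variation of the 9 genes had a median of 59.6% in male SCNT-BLs, 59.7% in male sham NT-BLs and 73.3% in male IVF-BLs, against 49.6%, 57.9% and 52.8% for the 6983 genes of the same range of mean FPKM. It was 43.4% in female SCNT-BLs, 79.6% in female sham NT-BLs and 51.4% in female IVF-BLs, against 54.8%, 52.2% and 49.1% for those genes. The FGF-ERK genes therefore varied from embryo to embryo about as much as other genes of their level, or more, with female SCNT-BLs below.

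To see whether the genes moved together from embryo to embryo, each was centred on its group mean and all 36 pairs were correlated over the 35 blastocysts, which share a flow cell within a sex. DUSP6 and ETV4 varied together: Pearson's r was 0.615 (permutation p = 0.00046, adjusted over 36 pairs 0.0166) and Spearman's rho 0.644 (permutation p = 0.00033, adjusted 0.0119), and r was 0.586 without the 2 embryos farthest from the median of DUSP6. Within sexes r was 0.737 in the 18 males (adjusted permutation p = 0.0637) and 0.422 in the 17 females (adjusted permutation p = 0.783), and without the sham NT-BLs it was 0.442 in 24 embryos (adjusted permutation p = 0.323). In male sham NT-BLs, replicates 1 and 2 had 15.9 and 15.6 FPKM of DUSP6 with 12.4 and 22.5 FPKM of ETV4, and the other 4 had at most 5.75 and 1.25 FPKM. By Pearson's r the relation passed in the pooled embryos and in none of these subsets; by Spearman's rho it also passed in males (0.777, adjusted permutation p = 0.0418).

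The other 35 pairs did not pass. The next in size were SPRY2 with SPRY4 at r = 0.439 (rho 0.302), which fell to 0.148 without 2 embryos, and DUSP6 with ETV5 at r = 0.428 (rho 0.408; permutation p adjusted 0.204 for r and 0.170 for rho). ETV5 had a positive r with SPRY4 (0.414) and ETV4 (0.404) as well. Over all pairs r was positive in 23 of 36 with a median of 0.126. FGFR3 and FGFR4 had r = -0.01 with each other, and both had a negative r with DUSP6 and ETV4.

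**Figure D4:**
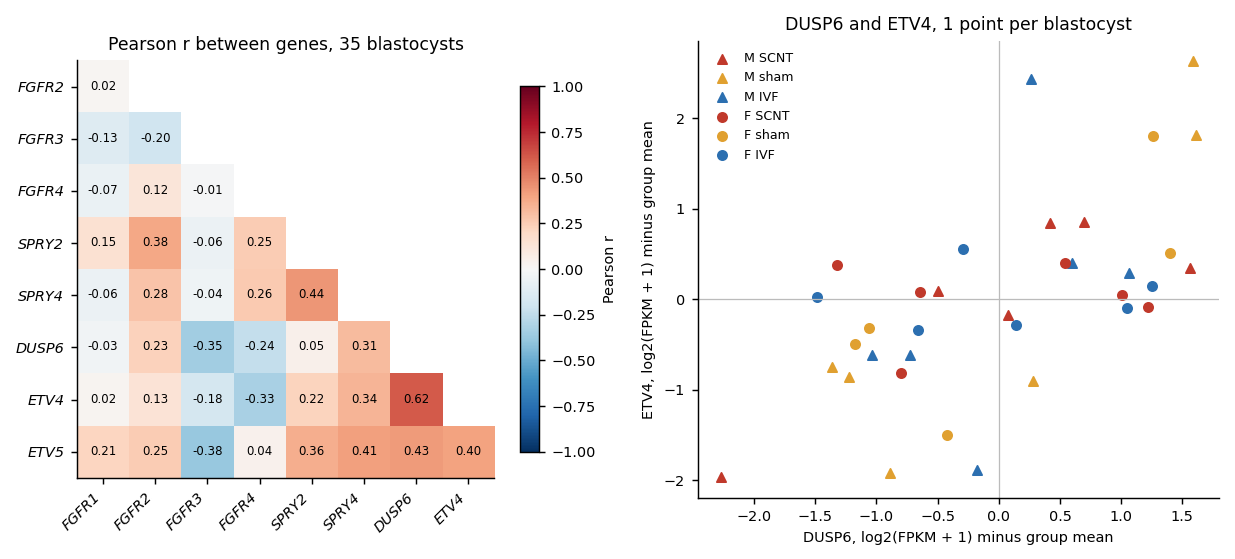
Left, Pearson's r between each pair of 9 genes over 35 blastocysts after removing group means (colour scale -1 to 1). Right, DUSP6 against ETV4 as log2(FPKM + 1) minus the group mean, 1 point per blastocyst; r was 0.615.

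Among the 11154 other genes with a mean over 1 FPKM, those whose group-centred values were most like each of the 9 genes over the 35 blastocysts are given as a description. ETV4 was most like PFKP, a phosphofructokinase (r = 0.818), then LOC509006 (r = 0.765) and LNX2 (r = 0.728). DUSP6 was most like SLC48A1, a haem transporter (r = 0.786), HMOX2, a haem oxygenase (r = 0.761), and PLEKHO2 (r = 0.756). FGFR3 was most like the kinase gene AKT1 (r = 0.756), the calcium channel gene CACNA1H (r = 0.751) and PHRF1 (r = 0.731), and FGFR4 most like AKAP12 (r = 0.683), CYTH3 (r = 0.678) and SAMHD1 (r = 0.654). SPRY2 had no close partner, its highest r being 0.582 with RP9. The points share libraries, depth and amplification, and the highest of 11154 values is large by selection.

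The rest of the pathway was read from lists of 72 genes, 73 rows of which are in the table. The relay that carries the signal to ERK was well represented, with 17 or 18 of its 18 genes over a mean of 1 FPKM in every blastocyst group. SHC1, an adaptor that couples receptors to RAS, was at 196 ± 31.7 FPKM in female sham NT-BLs (SD, n = 5), against 95.8 ± 19.1 FPKM in female IVF-BLs (n = 6), and was higher in the sham NT-BLs by a log2 difference of 1.04 ± 0.21 (SE, limma, adjusted p = 0.00364). HRAS, a RAS gene, was at 69.6 ± 47.8 FPKM in female sham NT-BLs, between 36.7 and 154 FPKM, against 9.31 ± 4.54 FPKM in female IVF-BLs, between 5.72 and 17.7 FPKM. The ranges did not overlap, and the log2 difference was 2.68 ± 0.36 (SE, limma, adjusted p = 2.28e-04). In males HRAS was at 47.7 ± 21.5 FPKM in sham NT-BLs and 47.5 ± 23.3 FPKM in IVF-BLs, and the difference depended on sex (2.64 females minus males, limma, adjusted p = 0.0133).

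By comparison, the pathway genes called were 0 higher and 3 lower of 62 tested in male SCNT-BLs against IVF-BLs (among them the ERK phosphatase DUSP7 and the immediate early gene JUNB; 4.84% against 6.98% of all genes; median log2 difference -0.09), and 0 higher and 1 lower of 59 in females (IER3, an ERK-induced gene, at -2.68 with an adjusted p of 0.0139; 1.69% against 0.321% of all genes; median -0.11). Male sham NT-BLs against IVF-BLs had 2 higher and 3 lower of 60 (SPRED1 and CBL, both inhibitors, higher; EXT2 and JUNB among the lower; 8.33% against 12.1% of all genes; median -0.11). Female sham NT-BLs against IVF-BLs had 4 higher and 9 lower of 59, which is 22.0% against 13.5% of all genes, with a median of -0.29. Among these, HRAS (2.68), HS2ST1, a heparan sulphate sulphotransferase (2.31), and the adaptor gene SHC1 (1.04) were higher, and EXT2, which builds heparan sulphate chains (-1.79), and MAP2K2, which encodes MEK2 (-1.84), were lower. Of the 12 other ERK target genes tested there, 0 were higher and 3 lower, with a median of -0.89.

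SCNT-BLs against sham NT-BLs had 2 higher and 2 lower of 58 pathway genes in males (EXT2 among the higher and IER2 among the lower; 6.90% against 11.8% of all genes; median 0.01) and 5 higher and 4 lower of 59 in females (15.3% against 11.3% of all genes; median 0.21). Among those of females, EXT2 (1.52), BRAF (1.23) and FOS (1.79) were higher and HS2ST1 (-2.71) and SPRED1 (-1.79) were lower in SCNT-BLs. EXT2 was lower in sham NT-BLs than in IVF-BLs and higher in SCNT-BLs than in sham NT-BLs in both sexes, at 25.3 ± 7.19, 10.6 ± 2.36 and 29.3 ± 9.99 FPKM in male SCNT-BLs, sham NT-BLs and IVF-BLs; those comparisons share the sham NT-BLs.

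Cell type markers moved in the same comparisons. POU5F1, the pluripotency factor of the inner cell mass, was lower in sham NT-BLs than in IVF-BLs in males (log2 difference -1.69, adjusted p = 0.000719) and females (-1.97, adjusted p = 0.00112), where SPRY2 in females and FGFR3 in males were also lower. The sum of 8 inner cell mass markers was 67.4 to 173 FPKM in male sham NT-BLs against 134 to 201 FPKM in male IVF-BLs, and 85.1 to 124 FPKM in female sham NT-BLs against 115 to 330 FPKM in female IVF-BLs. KLF4 was lower in both sham NT groups too, and LIN28A was higher in females. Of the 8 inner cell mass genes, 2 were lower and 0 higher in male sham NT-BLs than in IVF-BLs (list median -0.64). In females 2 were lower and 1 higher (list median -0.06). POU5F1 was higher in SCNT-BLs than in sham NT-BLs in males (1.82) and females (1.4). In that comparison 1 of 8 was called in males (list median 0.3) and 2 of 8, POU5F1 and KLF4, in females (list median -0.29). Over all genes, 11.8% and 11.3% were called there. GATA6, an early marker of primitive endoderm, was higher in SCNT-BLs than in sham NT-BLs in males (1.21, adjusted p = 0.00189) and females (0.82, adjusted p = 0.0295), where the sum of 7 endoderm markers overlapped: 238 to 374 FPKM in male SCNT-BLs against 92.6 to 279 FPKM in male sham NT-BLs, and 175 to 312 FPKM in female SCNT-BLs against 112 to 354 FPKM in female sham NT-BLs. SOX17 was listed at 0 in all embryos of these 4 groups. Single markers of the other lineages were also lower in sham NT-BLs than in IVF-BLs by limma. In males these were 2 of 9 trophectoderm genes, TFAP2C (-1.11, adjusted p = 0.00583) and DLX3 (-1.50, adjusted p = 0.0339). With them went 1 of 6 endoderm genes tested, GATA4 (-1.22, adjusted p = 0.0158). In females they were 0 of 9 trophectoderm genes and 1 of 5 endoderm genes tested, GATA6 (-0.95, adjusted p = 0.018). Over all genes, 12.1% were called in males and 13.5% in females. The female endoderm list had a median log2 difference of -0.03, and its sums overlapped (112 to 354 FPKM against 160 to 311 FPKM in IVF-BLs). Of 9 trophectoderm markers, CDX2 and TFAP2C were higher in male SCNT-BLs than in male sham NT-BLs, and DLX3 in females. Of the cumulus and oocyte lists, which sum to at most 38.3 and 11.3 FPKM in any embryo, GDF9 alone was called, lower in female SCNT-BLs than in female sham NT-BLs. In whole embryos, fewer cells of a type and less RNA per cell cannot be told apart, and the part of cell make-up in the SPRY2, FGFR3 and FGFR4 differences was not tested.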

How the data were processed

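The authors amplified poly(A) RNA of each embryo by pico-profiling, prepared Illumina libraries and deposited 1 table of FPKM. Per the labels, reads were trimmed with Trim Galore, aligned to the bovine build UMD 3.1 with TopHat and quantified with Cufflinks and Cuffdiff; versions of the tools are not given in the sources used here. FPKM hold no read counts, so the depth per library is not known from the table and no counting intervals are given. All 37 columns were mapped by name to labelled samples. Values were tested as log2(FPKM + 1) with limma 3.58.1 (lmFit, eBayes with trend) in R 4.3.3, on rows with a mean over 0.1 FPKM in the groups compared, with adjusted p under 0.05 as threshold. Fold changes on this scale understate those of low genes. Only the groups compared entered each fit; the fit was tested on simulated data. Relations used 100000 permutations within groups (numpy 2.4.6, Python 3.11.15). Every one of the 10 genes is named in each comparison, and of the other pathway genes at most the 6 with the smallest adjusted p per comparison are described; others are named only in counts. SPRED3 was not matched to a row. Some genes of the pathway lists enter the counts and are not reported by name here. Genes and lists were chosen with earlier results of these data known. The receptor shares and the reading of embryos without female SCNT-BL 6 were added after seeing the data. Gene neighbours are from RefSeq, ARS-UCD2.0, a later assembly than the one used for alignment. Alternatives were another pseudocount, filter, scaling or set of samples, a replicate block and leaving out each embryo.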

Additional observations from a re-analysis of the deposited data

Results flagged for a closer look

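Within groups of 5 or 6 embryos, 55 sets of values of the 10 genes were examined for an embryo set apart by Dixon's criterion, and 6 were flagged. Its chance rate of about 1 in 20 holds for normally distributed values. It was applied to FPKM as listed, which need not follow that shape, so the count cannot be set against this rate. Female IVF-BL 1 was the only embryo with FGF4 above 0, at 0.836 FPKM, and such a set meets the criterion by construction. Female SCNT-BL 6 had 2.43 FPKM of FGFR3, the nearest other embryo of its group being at 11.3 FPKM. Female IVF-BL 4 had 10.9 FPKM of FGFR4, with the nearest at 22.3 FPKM. SPRY4 stood out at 66.5 FPKM in male IVF-BL 3 (nearest 22.2 FPKM) and at 58.2 FPKM in female IVF-BL 5 (nearest 12.4 FPKM). ETV4 stood out at 30.5 FPKM in male IVF-BL 4 (nearest 6.71 FPKM). The SPRY2 difference between SCNT-BLs and sham NT-BLs differed between the sexes by 3.55 on the log2 scale, females minus males (limma, adjusted p = 7.2e-04). Sex, flow cell and the donor cells of the SCNT-BLs cannot be told apart there.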

How the results depend on the processing

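SPRY2 in SCNT-BLs against sham NT-BLs kept its direction in both sexes under all alternatives, and its dependence on sex kept its call. The other calls rest on few embryos or sit near the threshold. Against IVF-BLs, male SCNT-BLs had 0 genes called, and 1 (FGFR3) with a filter over 1 FPKM or with all 6 groups in 1 fit; leaving out single embryos gave 0 to 1. Male sham NT-BLs had 1 (FGFR3), and 0 without a filter, with libraries centred on their medians, with quantile normalization and with a replicate block; leaving out embryos gave 0 to 1. Female sham NT-BLs had 1 (SPRY2), and 2 with a filter over 1 FPKM; leaving out embryos gave 0 to 2. Against sham NT-BLs, male SCNT-BLs had 1 (SPRY2), and 0 with a replicate block; female SCNT-BLs had 2, and 1 with all 6 groups in 1 fit, and leaving out embryos gave 1 to 3. Dependence on sex of SCNT-BLs against IVF-BLs was called for 0 genes, and for 0 to 1 when embryos were left out. The count of related pairs by Pearson's r was 1, and 0 in males only, in females only and without sham NT-BLs; by Spearman's rho DUSP6 with ETV4 passed in males. The subsets hold fewer embryos, and the cause of these changes was not tested. Same-numbered embryos of different groups correlated at -0.239 to 0.077 in their deviations, so the replicate block does not pair them; it changed no other call. Of 66 differences of the 10 genes with an unadjusted p of 0.05 or more, 21 changed sign under some alternative, all with a main size of at most 0.35 on the log2 scale. Median centring moved the split of calls over all genes by more than 10 percentage points for sham NT-BLs against IVF-BLs, to 1130 higher and 719 lower in males (913 and 888 uncentred) and 1293 higher and 676 lower in females (1073 and 988 uncentred). Without read counts, the precision of FGF4, ETV5 and other low values cannot be given.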
